A study of Mus musculus with 6 samples.

Results

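The genes described here are 8 components of the plasminogen activator system and related serpins in C2C12 cells, a mouse myoblast line that fuses into multinucleated myotubes when growth serum is withdrawn. They were taken by symbol from a table of 43074 gene symbols: the activators Plau and Plat, the urokinase receptor Plaur, the surface proteins Anxa2 and S100a10, and the serpins Serpine2, Serpinb2 and Serpinf1. All 8 passed the filter on low counts, which left 17433 genes to be tested. In GENCODE M21 (GRCm38) they are protein-coding genes on chromosomes 14 (Plau), 8 (Plat), 7 (Plaur), 9 (Anxa2), 3 (S100a10), 1 (Serpine2 and Serpinb2) and 11 (Serpinf1). RNA sequencing libraries came from 3 groups of 2 libraries each, all of the wild-type C2C12 line and all with batch number 1. The day 0 group was not treated. The day 4 groups were moved from growth medium with 10% fetal bovine serum to differentiation medium with 5% horse serum and kept there for 4 days, one with DMSO and the other with 4-phenylbutyric acid (4-PBA) at 1 mM, an aromatic fatty acid that inhibits histone deacetylases and is used as a chemical chaperone. Time, medium and DMSO changed together between day 0 and day 4, so they cannot be told apart in that comparison. Nothing in the labels ties the replicates to separate cultures, so the p-values measure only the spread between these libraries, which may be technical.

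Plasmin is a broad protease that degrades fibrin and matrix proteins and activates growth factors and metalloproteases. It is made from its circulating zymogen plasminogen by urokinase (Plau) or tissue plasminogen activator (Plat). Urokinase is held at the cell surface by its receptor (Plaur), and plasminogen can dock on a complex of annexin A2 (Anxa2) with the small calcium-binding protein S100A10. The activators are blocked by serpins, which trap proteases through an exposed loop. In skeletal muscle the urokinase system is known for its part in myoblast migration and in regeneration after injury.

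The sequences upstream of the start sites are shown for 4 of the 5 genes that were lower at day 4, because the study's title names the transcription factor Egr-1 and NF-κB. RefSeq windows (GRCm38.p6) were matched by symbol for 5 of the 8 genes, namely Plaur, Serpinb2, Anxa2, Serpine2 and Serpinf1. The 250 bases before the start were searched on both strands for the AP-1 letters TGANTCA, the EGR1 core GNGGGCG (which can overlap the Sp1 letters GGGCGG), the E-boxes CAGCTG and CACCTG, and the NF-κB consensus. The windows are chr7:24462233-24462482 (plus strand) for Plaur, chr1:107511173-107511422 (plus strand) for the more upstream of the Serpinb2 starts, chr9:69453433-69453682 (plus strand) for Anxa2 and chr1:79858666-79858915 (minus strand) for Serpine2. Capitals mark the matched letters.
Plaur: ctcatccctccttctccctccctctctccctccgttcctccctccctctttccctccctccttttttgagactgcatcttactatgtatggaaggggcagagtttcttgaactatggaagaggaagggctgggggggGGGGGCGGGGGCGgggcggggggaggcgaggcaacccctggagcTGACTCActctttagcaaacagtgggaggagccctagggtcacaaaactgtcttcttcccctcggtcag
Serpinb2: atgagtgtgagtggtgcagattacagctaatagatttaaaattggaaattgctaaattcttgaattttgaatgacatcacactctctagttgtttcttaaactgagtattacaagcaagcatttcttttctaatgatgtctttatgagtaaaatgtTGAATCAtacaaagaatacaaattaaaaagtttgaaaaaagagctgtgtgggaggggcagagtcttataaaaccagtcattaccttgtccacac
Anxa2: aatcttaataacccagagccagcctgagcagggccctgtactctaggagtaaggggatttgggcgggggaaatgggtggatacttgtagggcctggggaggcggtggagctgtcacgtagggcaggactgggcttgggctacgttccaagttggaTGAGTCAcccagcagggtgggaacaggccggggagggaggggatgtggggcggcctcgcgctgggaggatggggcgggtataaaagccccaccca
Serpine2: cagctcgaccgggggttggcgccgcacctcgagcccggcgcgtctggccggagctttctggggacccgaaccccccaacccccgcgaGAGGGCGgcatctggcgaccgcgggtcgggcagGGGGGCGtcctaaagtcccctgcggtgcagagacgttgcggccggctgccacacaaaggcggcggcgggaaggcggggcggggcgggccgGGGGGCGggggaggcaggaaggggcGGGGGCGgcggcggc
The AP-1 letters were present before Plaur (tgactca, from 69 bases before the start), Serpinb2 (tgaatca, from 94 bases) and Anxa2 (tgagtca, from 95 bases), and were not found before Serpine2 or Serpinf1. Among all 32841 windows of this length, 6.8% held them. The EGR1 core was present before Serpine2 (4 matches) and Plaur (2 overlapping matches), and was not found before Serpinb2, Anxa2 or Serpinf1. Of all windows, 28.3% held at least 1 match. No E-box and no NF-κB consensus was found in the windows of the 5 genes, where 27.7% and 3.9% of all windows held one. The windows differed in base composition, from 32.4% G and C before Serpinb2 to 78.8% before Serpine2, around a median of 52.4% over all windows. A match is a description of the letters in this window and not evidence of binding.

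The libraries held 47908926 to 74697397 counts, and counts per library ranged from 12 to 2007 for Serpinb2 and from 296 upwards for the other 7 genes, with the highest value in Anxa2 (101808). Values below are CPM, counts scaled by library size with TMM factors. Tests are edgeR quasi-likelihood tests with Benjamini-Hochberg adjustment over all 17433 genes, and a gene with an adjusted p under 0.05 was called. All 10 myoblast and myotube markers were detected and tested, and their summed level was 1400.3 to 1409 CPM at day 0, 7691 to 7919 with DMSO and 7448 to 7545 with 4-PBA. Summed markers of other cell types were low, at 1.63 to 6.11 CPM for macrophages, 1.71 to 2.96 for endothelium, 0.0644 to 0.165 for adipocytes, 4.45 to 6.17 for epithelium and 2.90 to 4.15 for Schwann cells, where Sox10 was at 0 in every library. The 6 cell cycle markers summed to 2085 and 2119 CPM in the day 0 libraries, 637 and 560 under DMSO and 681 and 692 under 4-PBA. All 6 fell with differentiation, and their sum differed between the DMSO replicates and was higher in both 4-PBA libraries than in either DMSO library, and their part in the changes described here was not tested.

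Over 4 days of differentiation both activators rose, while the urokinase receptor, the docking proteins and the inhibitory serpins among the 8 genes fell. With DMSO, Plau rose 3.0-fold and Plat 2.32-fold, while Plaur fell by a factor of 5.31, Serpine2 by 2.22 and Serpinb2 by 88.3. Anxa2 and S100a10 fell by factors of 1.72 and 1.52, and Serpinf1 rose 1.20-fold. All 8 genes were called, as were 66.3% of all tested genes, so the count alone does not set these genes apart. Of the 8, 3 were higher and 5 lower, where 33.8% and 32.6% of all tested genes were higher and lower. Day 0 and DMSO libraries did not overlap for any of the 8, as for 81.9% of all tested genes. With 4-PBA the 8 genes kept these directions against day 0 and all were called (65.6% of all tested genes, 33.2% higher and 32.4% lower), again with no overlap (81.8% of all tested genes). The median log2 fold change of the 8 was -0.69 with DMSO and -0.68 with 4-PBA, beside 0.023 and 0.018 over all tested genes. Between 4-PBA and DMSO at day 4, 1 of the 8 genes was called, Plat, which was higher. Of all tested genes 4.90% were called there, 2.13% higher and 2.78% lower, and the median of the 8 was -0.012 beside 0.0021 over all. The background moved with the libraries and the scaling: of 855 calls 371 were higher, against 634 of 1194 without DMSO replicate 1, 461 of 896 with scaling by library size only, 137 of 341 without 4-PBA replicate 1 and 112 of 295 without 4-PBA replicate 2. These comparisons share libraries, so their values are given side by side and not as independent evidence.

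**Figure D1:**
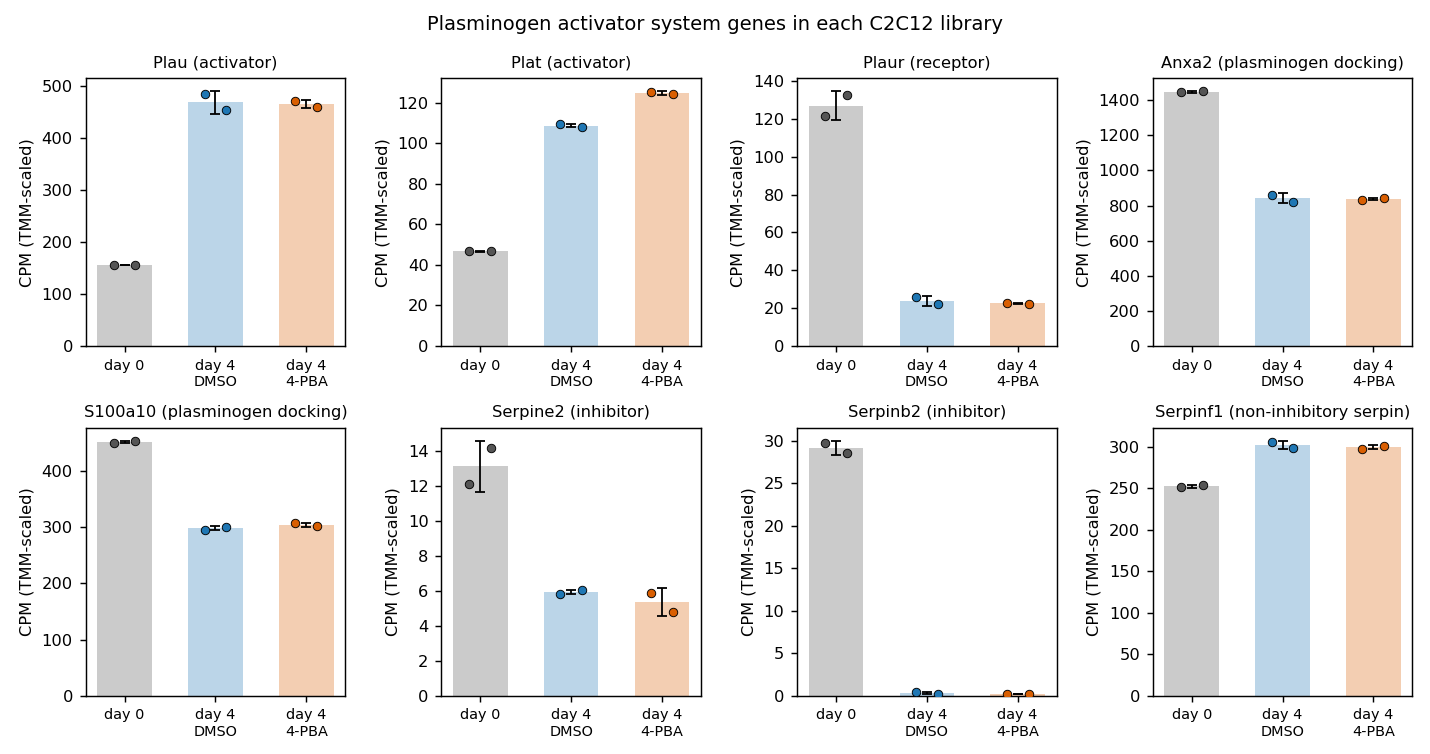
CPM of each of the 8 genes (vertical axes, TMM-scaled, each from 0) in the 6 libraries, grouped as day 0, day 4 with DMSO and day 4 with 4-PBA. Points are libraries, bars group means and error bars SD (n = 2); in each panel the day 4 libraries stand apart from day 0, and Plat alone shows a called difference between the day 4 groups (125 against 109 CPM).

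Plau encodes urokinase, the secreted serine protease that cleaves plasminogen near the cell surface. Day 0 libraries held 156.4 and 156.2 CPM, DMSO libraries 484 and 454, and 4-PBA libraries 471 and 459.9. All day 4 libraries lay above both day 0 libraries, and the DMSO and 4-PBA ranges overlapped. Its log2 fold change against day 0 was 1.58 (SE 0.032, adjusted p 1.88e-30) with DMSO and 1.57 (SE 0.033, adjusted p 2.53e-30) with 4-PBA.

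Plat encodes tissue plasminogen activator, which works best when bound to fibrin or a cell surface docking site. Its level was 46.7 and 47.0 CPM in the day 0 libraries, 109 and 108 under DMSO, and 125 and 124 under 4-PBA. The 3 groups did not overlap, and replicates lay close together. Against day 0 the log2 fold change was 1.22 (SE 0.039, adjusted p 1.16e-24) with DMSO and 1.41 (SE 0.039, adjusted p 1.41e-26) with 4-PBA. Between the day 4 groups Plat was 1.15-fold higher with 4-PBA (log2 fold change 0.20, SE 0.037, 95% confidence interval 0.12 to 0.27, adjusted p 6.27e-04).

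Plaur encodes the urokinase receptor, a protein anchored in the membrane by a lipid that focuses urokinase on the leading edge of migrating cells. Before differentiation its libraries read 121 and 132 CPM, after it 25.9 and 22.1 under DMSO and 22.5 and 22.4 under 4-PBA. Every day 0 library was far above every day 4 library, and the 4-PBA libraries lay within the DMSO range. Relative to day 0 it changed by a log2 fold change of -2.41 (SE 0.061, adjusted p 1.88e-19) with DMSO and -2.50 (SE 0.061, adjusted p 1.30e-19) with 4-PBA. The receptor and its ligand therefore moved in opposite directions, and the promoter windows shown above cover the receptor but not Plau. In these bulk libraries, fewer cells that express a gene and less RNA per cell cannot be told apart.

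Anxa2 encodes annexin A2, a phospholipid-binding protein that docks plasminogen and tissue plasminogen activator when joined to S100A10. Day 0 libraries held 1444 and 1450.2 CPM, DMSO libraries 862 and 822, and 4-PBA libraries 832 and 842. The day 0 libraries lay above all others and the 4-PBA libraries lay within the DMSO range. Its log2 fold change against day 0 was -0.78 (SE 0.028, adjusted p 3.23e-23) with DMSO and -0.79 (SE 0.028, adjusted p 2.46e-23) with 4-PBA. In GENCODE M21, 98 exonic bases of Anxa2 overlap Gm16144 on the opposite strand, which had at most 5 counts in any library.

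S100a10 encodes the partner that carries the plasminogen-binding end of the complex. Its level was 450.4 and 453 CPM in the day 0 libraries, 295 and 300.2 under DMSO, and 307 and 302 under 4-PBA. The day 0 libraries were again highest, and the 4-PBA libraries lay just above both DMSO libraries. The change from day 0, as a log2 fold change, was -0.60 (SE 0.029, adjusted p 2.52e-19) with DMSO and -0.57 (SE 0.029, adjusted p 1.27e-18) with 4-PBA. Both subunits of the complex thus fell. The log2 fold change of S100a10 was the smaller, and the difference between the genes was not tested across all features.

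Serpine2 encodes protease nexin-1, a secreted serpin that inhibits thrombin, urokinase and plasmin. Before differentiation its libraries read 12.1 and 14.1 CPM, after it 5.83 and 6.01 under DMSO and 5.90 and 4.77 under 4-PBA. Both day 0 libraries lay above all day 4 libraries, while the day 4 groups overlapped. Its log2 fold change against day 0 was -1.15 (SE 0.11, adjusted p 3.37e-11) with DMSO and -1.30 (SE 0.11, adjusted p 2.74e-12) with 4-PBA.

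Serpinb2 encodes plasminogen activator inhibitor 2, a clade B serpin kept largely inside the cell. Day 0 libraries held 1446 and 2007 counts (29.8 and 28.6 CPM). DMSO libraries held 27 and 18 counts (0.43 and 0.24 CPM), and 4-PBA libraries 12 each (0.19 CPM). The transcript was thus close to the lower end of detection at day 4, and its day 4 levels carry a wide counting error. Relative to day 0 it changed by a log2 fold change of -6.46 (SE 0.15, adjusted p 1.32e-28) with DMSO and -7.22 (SE 0.17, adjusted p 1.19e-28) with 4-PBA. Over the 13 alternatives the value with DMSO ranged from -6.90 to -6.08, beyond its 95% confidence interval (-6.78 to -6.15). These SEs are derived from F and may be too small at such low counts. The size of the Serpinb2 change with DMSO lay at the 99.4th percentile of absolute log2 fold changes over all tested genes. It was followed among the 8 genes by Plaur at the 93.8th and Plau at the 86.7th, with Serpinf1 lowest at the 30.5th. In GENCODE M21, exons of Serpinb2 overlap those of Serpinb10 on the same strand, and Serpinb10 had at most 2 counts in any library.

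Serpinf1 encodes pigment epithelium-derived factor, a secreted serpin that does not inhibit proteases and is known for neurotrophic and antiangiogenic activity. Its level was 251 and 254 CPM in the day 0 libraries, 306 and 299 under DMSO, and 298 and 301 under 4-PBA. All day 4 libraries were above day 0, by a small margin, and the day 4 groups overlapped. The change from day 0, as a log2 fold change, was 0.26 (SE 0.030, adjusted p 1.88e-09) with DMSO and 0.25 (SE 0.030, adjusted p 6.10e-09) with 4-PBA. The serpins among the 8 genes did not share a direction: Serpinf1 rose while Serpine2 and Serpinb2 fell.

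**Figure D2:**
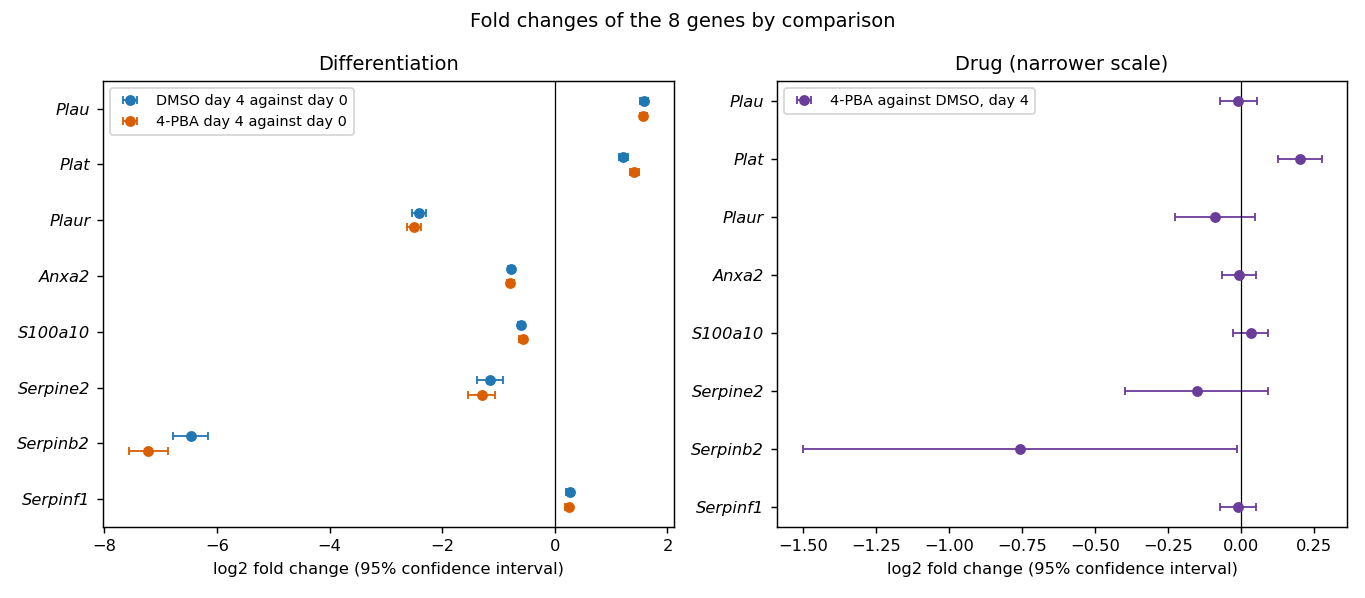
Log2 fold changes (horizontal axes) of the 8 genes with 95% confidence intervals, for both day 4 groups against day 0 on the left and for 4-PBA against DMSO on the right, where the scale is narrower. On the left no interval reaches 0, and on the right those of Plat (0.12 to 0.27) and Serpinb2 (-1.50 to -0.014) do not reach it. The intervals of Serpinb2 on the left may be too narrow, because few counts remained at day 4.

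The comparison of 4-PBA with DMSO asked what the drug changed in these genes at day 4. Apart from Plat, no gene of the 8 was called. The log2 differences were -0.011 for Plau (95% confidence interval -0.074 to 0.053, adjusted p 0.922), -0.0089 for Anxa2 (-0.066 to 0.048, adjusted p 0.928), -0.013 for Serpinf1 (-0.074 to 0.048, adjusted p 0.900) and 0.031 for S100a10 (-0.028 to 0.091, adjusted p 0.673). For these 4 abundant transcripts the intervals extend no further from 0 than 0.091. The remaining genes were measured less tightly, with -0.091 for Plaur (-0.23 to 0.046, adjusted p 0.555) and -0.15 for Serpine2 (-0.40 to 0.092, adjusted p 0.593). Serpinb2 had a log2 difference of -0.76 (-1.50 to -0.014) on the few counts given above, with an unadjusted p of 0.0462 and an adjusted p of 0.287, and was not called. With 1 library left out, the difference of Serpinb2 was lowest at -1.14, in the absence of DMSO replicate 2, and highest at -0.33, in that of DMSO replicate 1, and that of Serpine2 lay between -0.31 (without 4-PBA replicate 1) and -0.0070 (without 4-PBA replicate 2), with no call. The libraries of the 2 groups did not overlap for 3 of the 8 genes, Plat, S100a10 and Serpinb2, as for 45.5% of all tested genes. Without DMSO replicate 2, Plaur was also called (log2 difference -0.20, adjusted p 0.0240, in a range over all alternatives up to 0.914), and without DMSO replicate 1 its difference was 0.024. Some markers moved in this comparison too, with 5 of the 10 myoblast and myotube markers called, beside 4.90% of all tested genes. Lower with 4-PBA were Des (-0.11, adjusted p 0.00881), Mymk (-0.17, adjusted p 0.0134), Acta1 (-0.094, adjusted p 0.0451) and Actc1 (-0.22, adjusted p 1.64e-05). Cdh15 was higher (0.11, adjusted p 0.0171). Not called were Myod1 (-0.045), Myf5 (0.061), Myog (0.0052), Myh3 (0.018) and Ckm (-0.17). Of the 6 cell cycle markers 2 were called, Mcm7 (0.28, adjusted p 1.92e-05) and Rrm2 (0.13, adjusted p 0.0116), both higher. Mki67 (0.19), Top2a (0.25), Ccnb1 (0.24) and Cdk1 (0.17) were not called. Of all tested genes 2.13% were called higher. The marker calls were not followed through the 13 alternatives. The part of these markers in the Plat difference was not tested, and exons of Des and Mcm7 overlap other genes. The Plat call held in each of the 13 alternatives, with log2 differences between 0.19 and 0.21.

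To compare levels between genes, CPM were divided by the length of the longest GENCODE transcript tied to a RefSeq mRNA (CPM per kb). At day 0 the order was Anxa2 (1000.2 ± 2.83, SD, n = 2), S100a10 (659 ± 2.69), Serpinf1 (138 ± 1.03), Plaur (84.3 ± 5.10), Plau (66.7 ± 0.064), Plat (18.5 ± 0.088), Serpinb2 (14.6 ± 0.41) and Serpine2 (5.93 ± 0.66). With DMSO at day 4 the order was Anxa2 (582 ± 19.8), S100a10 (435 ± 4.93), Plau (200.2 ± 9.21), Serpinf1 (165 ± 2.59), Plat (43.1 ± 0.33), Plaur (15.9 ± 1.78), Serpine2 (2.68 ± 0.058) and Serpinb2 (0.17 ± 0.066), and it was the same with 4-PBA. Neighbours in each order did not overlap between libraries. Plau moved above Plaur and Serpinf1, and Plaur moved below Plat. The order depended on the length used: with the length of all annotated exons, Plau stood above Plaur and Serpinb2 above Plat at day 0, and S100a10 above Anxa2 at day 4.

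Ratios within a library do not depend on library scaling. The ratio of Plau to Plaur, in CPM per kb, was 0.83 and 0.76 in the day 0 libraries, 12.03 and 13.2 under DMSO and 13.4 and 13.2 under 4-PBA. The ratio was many times higher in each day 4 library than at day 0, and the 4-PBA libraries overlapped the DMSO range. Its absolute size depended on the length: with the length of all annotated exons the means were 1.36 at day 0, 21.7 with DMSO and 22.9 with 4-PBA, so the ratio at day 0 lay above 1. Plat amounted to 27.7% and 27.9% of Plau before differentiation, 20.9% and 22.1% under DMSO and 24.7% and 25.0% under 4-PBA, so the 3 groups did not overlap. With the length of all exons the means were 11.4%, 8.8% and 10.2%. The ratio of S100a10 to Anxa2 was 0.659 and 0.660 in the day 0 libraries, 0.72 and 0.77 under DMSO and 0.78 and 0.76 under 4-PBA, so it was higher in each day 4 library than in either day 0 library. With the length of all exons these means were 0.961, 1.09 and 1.12. The length rescales a ratio equally in every library, so the order of the libraries is the same with either. For each of these ratios both day 4 groups lay apart from day 0. With 2 libraries against 2, an exact two-sided permutation test gave 0.333 for each such separation, the smallest p it allows.

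**Figure D3:**
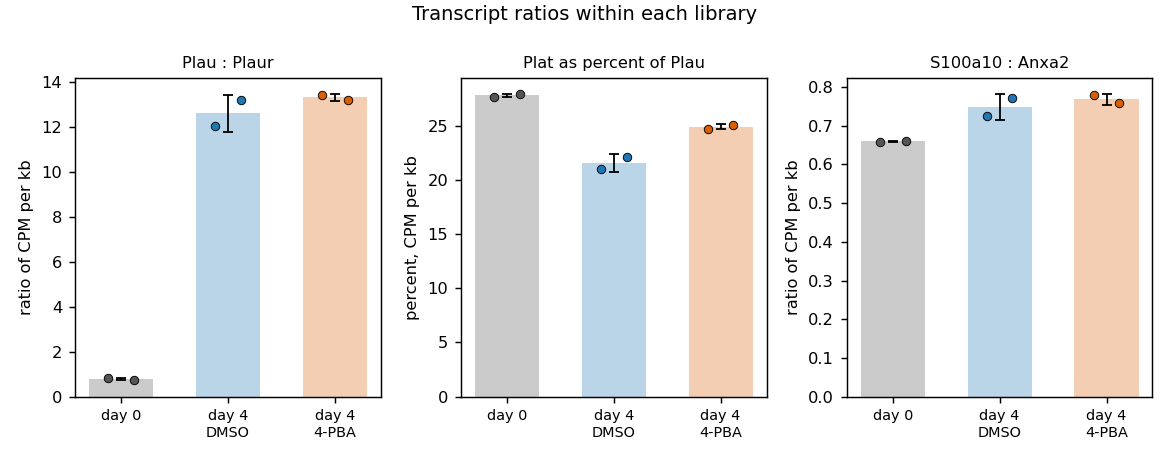
Ratios of transcript levels within each of the 6 libraries, in CPM per kb (vertical axes, from 0): Plau to Plaur, Plat as a percentage of Plau, and S100a10 to Anxa2. Points are libraries, bars group means and error bars SD (n = 2); the ratio of Plau to Plaur goes from 0.79 ± 0.049 at day 0 to 12.6 ± 0.83 with DMSO, or from 1.36 to 21.7 with the length of all exons.

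The wider system was described from lists of genes arranged by role. The counts in each list stand beside 33.8% of all tested genes higher and 32.6% lower with DMSO. Between 4-PBA and DMSO 4.90% of all tested genes were called. Plasminogen itself (Plg) had 0 to 19 counts per library and, like the zymogen activators Klkb1, F12 and Hpn, was not tested. Of the 5 further receptor and docking genes, 2 rose and 2 fell with DMSO. Ahnak, a large scaffold protein that binds the annexin A2 complex, rose (log2 fold change 0.45, SE 0.026, adjusted p 3.94e-17), as did the plasminogen receptor Plgrkt (0.26, SE 0.067, adjusted p 9.53e-04). Eno1, a glycolytic enzyme that also binds plasminogen at the surface, fell (-0.93, SE 0.051, adjusted p 1.70e-08), and so did Anxa1 (-0.21, SE 0.028, adjusted p 3.71e-08). Reads of Eno1 may be shared with its near-identical copy Eno1b, which had similar counts, so its level is uncertain. Plgrkt was named after its values were seen. Between the day 4 groups Ahnak alone of the 5 was called, lower with 4-PBA (-0.10, SE 0.026, adjusted p 0.0142). That call was lost without 4-PBA replicate 1 or 2 (adjusted p 0.262 and 0.267, over a range of alternatives from 1.75e-04).

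Among the other inhibitors listed, 2 of 7 were tested and 1 was called. Serping1, the C1 inhibitor that acts on complement and contact-system proteases, rose from 3.05 ± 0.062 CPM to 22.5 ± 0.29 under DMSO and 22.3 ± 0.28 under 4-PBA. The log2 fold change under DMSO was 2.88 (SE 0.092, adjusted p 8.55e-25). The circulating plasmin inhibitors Serpinf2 and A2m had at most 11 and 3 counts in a library and were not tested.

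Of the 7 tested clearance receptors and cofactors, 5 rose and 2 fell with DMSO, and equally with 4-PBA. Mrc2, a collagen receptor that associates with the urokinase receptor, rose with DMSO by a log2 fold change of 1.27 (SE 0.032, adjusted p 8.07e-28), as did Igf2r (0.87, SE 0.034), while the lipoprotein receptor Lrp8 fell (-2.57, SE 0.059). Differences between the day 4 groups were called for Mrc2, higher with 4-PBA at 310 ± 3.62 against 267 ± 4.70 CPM (0.21, SE 0.031, adjusted p 2.56e-05), and for Lrp1, lower at 2127 ± 39.2 against 2320 ± 68.4 CPM (-0.13, SE 0.027, adjusted p 0.00344). Lrp1 is the endocytic receptor that clears complexes of activators with serpins. Its call was lost without either 4-PBA replicate (adjusted p 0.231 and 0.0639, over a range of alternatives from 6.32e-07). The median log2 fold change of this list with DMSO was 0.61, beside 0.023 over all tested genes.

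Of 6 tested substrates, 5 rose and 1 fell with DMSO, where 33.8% and 32.6% of all tested genes rose and fell. Among those that rose, Mmp3, Mmp9 and Mmp13 were below 1 CPM in every library, with at most 14, 3 and 9 counts at day 0. They were named after their values were seen. The membrane metalloprotease Mmp14 (log2 fold change 0.72, SE 0.030, adjusted p 3.59e-21) and the latent growth factor Tgfb1 (0.27, SE 0.037, adjusted p 9.51e-08) were higher. Hgf, a growth factor for satellite cells that urokinase can activate, fell from 47.3 ± 0.50 to 17.3 ± 0.034 CPM under DMSO (-1.45, SE 0.062, adjusted p 5.71e-21). It was lower again with 4-PBA, at 14.0 ± 0.47 CPM (log2 fold change against DMSO -0.31, SE 0.067, adjusted p 0.00374), and that call was lost without 4-PBA replicate 1 (adjusted p 0.0933, over a range of alternatives from 4.71e-04). Exons of Hgf overlap Gm43489 on the same strand. Fibrinogen transcripts had at most 1 count in any library.

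The thrombin axis was included because Serpine2 inhibits thrombin. With DMSO 4 of 9 tested genes rose and 3 fell. The prothrombin gene F2 rose from 6 and 2 counts at day 0 to 182 and 254 counts (log2 fold change 5.50, SE 0.36, adjusted p 1.11e-15), a size that rested on the few day 0 counts, at 6.70 without day 0 replicate 1 and 4.66 without day 0 replicate 2. F2rl2, a thrombin receptor of low level here, rose (1.67, SE 0.28, adjusted p 3.41e-06), with 1.31 and 2.29 without day 0 replicates 1 and 2. The protein C receptor Procr fell (-1.77, SE 0.13, adjusted p 1.59e-14). The main thrombin receptor F2r was higher with 4-PBA than with DMSO (0.13, SE 0.033, adjusted p 0.0141). That call was lost without DMSO replicate 2 or without either 4-PBA replicate, with adjusted p-values of 0.0769, 0.310 and 0.0577 (lowest over alternatives 4.33e-04).

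Among proteins reported to bind pigment epithelium-derived factor, 2 of 5 rose and 1 fell with DMSO. Plxdc2, at 1.98 ± 0.038 CPM on day 0 and 23.8 ± 0.47 under DMSO, rose most of the 5 (log2 fold change 3.58, SE 0.098, adjusted p 8.90e-27), and Lrp6 rose (0.20, SE 0.037, adjusted p 8.61e-06). Rpsa, the laminin receptor and ribosomal protein, fell (-0.67, SE 0.030, adjusted p 1.35e-19), and exons of Rpsa overlap Gm24044 on the same strand. None of the 5 was called between 4-PBA and DMSO by edgeR, and none had an unadjusted p under 0.05.

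**Figure D4:**
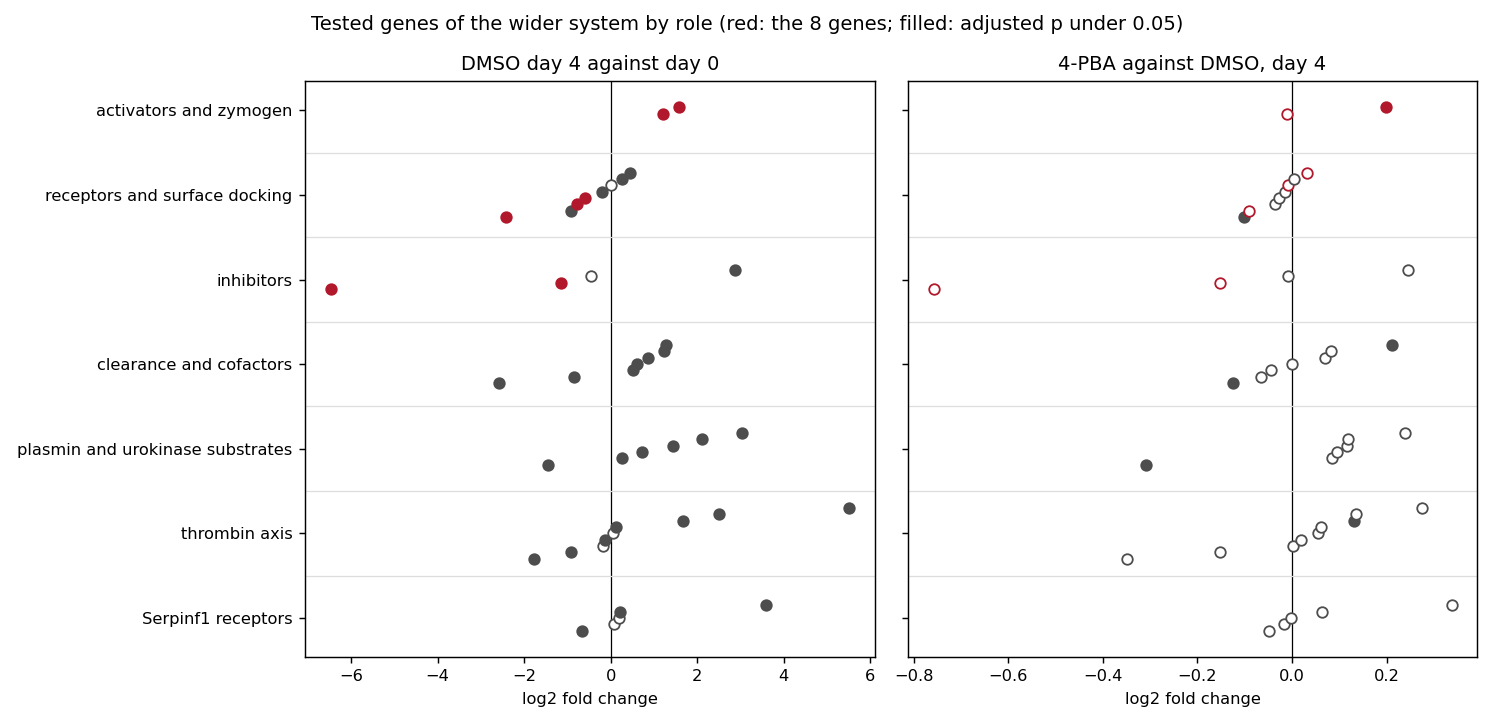
Log2 fold changes (horizontal axes, with different scales) of the tested genes of each role list, for DMSO at day 4 against day 0 on the left and 4-PBA against DMSO on the right. Each point is a gene, red for the 8 genes and grey for others, filled where the adjusted p is under 0.05; Serpinb2 lies furthest to the left in both panels (-6.46 and -0.76), and F2 furthest to the right with differentiation (5.50).

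The gene families of these members did not move as blocks. Of 24 other tested serpin symbols, 11 rose and 5 fell with DMSO. Some of these calls rested on few counts. Among those that rose, Serpina3g had 0 counts at day 0, Serpina9 at most 4, and the annotated pseudogene Serpina3h at most 2. Among those that fell, Serpinb9f had at most 2 counts with DMSO. These 4 were named after their values were seen. Of all tested genes 33.8% rose and 32.6% fell, so mixed directions were not particular to these families. Abundant ones included the collagen chaperone Serpinh1 (log2 fold change 0.41, SE 0.028), the intracellular Serpinb6a (-0.44, SE 0.030, with exons that overlap Nqo2 and Ripk1 on the opposite strand) and Serpinb9b (-0.76, SE 0.038, with exons that overlap Gm36099 on the opposite strand). Serpinb6a was also the 1 serpin called between 4-PBA and DMSO (-0.12, SE 0.030, adjusted p 0.00923). That call was lost without 4-PBA replicate 1 or 2 (adjusted p 0.234 and 0.0942, over a range of alternatives from 2.10e-04). Of 11 other tested annexin symbols, in a list that includes the antisense gene Anxa11os, 5 rose and 4 fell, with Anxa6 (0.43, SE 0.027) and Anxa3 (0.26, SE 0.028, with exons that overlap Gm42603 on the same strand) higher and Anxa1 lower, so the fall of Anxa2 was shared by some annexins and not by others. Anxa8, named after its values were seen as the 1 annexin called between the day 4 groups, was lower with 4-PBA (-0.25, SE 0.040, adjusted p 1.10e-04). Of 11 other tested S100a genes, 5 rose and 3 fell with DMSO, among them S100a6 higher (0.18, SE 0.031) and S100a11 lower (-0.52, SE 0.029). S100a4, with 302 of its 584 exonic bases in overlap with Gm42674 on the same strand, was not called (-0.047, SE 0.032, adjusted p 0.189). S100a4 was called lower with scaling by library size only (-0.076, adjusted p 0.0285) and without DMSO replicate 1 (-0.093, adjusted p 0.00428), with adjusted p up to 0.943 over the alternatives. S100a11 was the 1 S100a gene called between 4-PBA and DMSO (0.097, SE 0.029, adjusted p 0.0466), and the call was lost in 8 of 13 alternatives (adjusted p up to 0.430).

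Likeness of pattern was measured as the Euclidean distance between centred log2 CPM over the 6 libraries, among 10680 genes with a mean of at least 5 CPM. It is a description over 3 groups of 2 libraries. Plau was nearest to Traf4 (distance 0.068) and Pnma8b (0.078), Plat to Tcn2 (0.074) and Mrc2 (0.076), and Plaur to Id3 (0.16) and Cobll1 (0.20). Serpine2 was nearest to Zfp808 (0.088) and Rtkn2 (0.23), Anxa2 to Txnrd1 (0.030) and Rplp0 (0.032), S100a10 to Pgam5 (0.019) and Mthfd2 (0.031), and Serpinf1 to Farp1 (0.023) and Rrbp1 (0.025). Serpinb2 had the most distant neighbours, Selp (0.38) and Krt13 (1.22). Small changes have many close neighbours, with 1545 genes within 0.2 of Serpinf1 and none within 0.2 of Serpinb2.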

How the data were processed

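The authors deposited 1 table of raw counts per gene symbol, with 1 column per library and no pooling, per the labels. Libraries were made from DNase-treated total RNA with a directional kit, per the labels' protocols, and the build was GRCm39, per the submitters' processing notes. The aligner, counting tool, annotation, filters and strand setting are not given in the sources used here. Overlapping genes are therefore named as uncertain. Because the build differs, GENCODE M21 and RefSeq (both GRCm38) were used for lengths, overlaps and upstream sequences only, and 36556 symbols matched GENCODE.

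The whole table was fitted in R 4.3.3 with edgeR 4.0.16 (filterByExpr, TMM, 1 mean per group over 6 libraries, robust quasi-likelihood fit with 3 residual degrees of freedom). SE is the log2 fold change divided by the square root of F, and 95% confidence intervals use the fit's t distribution. Both may be too narrow where a group holds few counts, as for Serpinb2 and F2. The common biological coefficient of variation was 3.74%, and replicates varied beyond counting error (chi-square per degree of freedom 3.77 to 6.64). On simulated data for 4-PBA against DMSO (16954 genes), 164 of 200 changed genes were called, with 11 false calls. The changes were planted in genes above a count floor, and each was larger than the 1.15-fold difference of Plat. Counts were drawn from the fitted spread, with the same mean in every group apart from the planted changes, so without the shift from day 0. The share recovered also depends on the sizes planted. The recovery therefore does not cover differences as small as that of Plat, nor genes with few counts, nor the dependence of the calls on single libraries. The genes, lists and rules were chosen with earlier results of these data known. Named beyond the 8 genes are, per list and comparison, up to 3 called genes with the smallest adjusted p and at least 1 CPM, 3 abundant members of each family, and the 2 nearest genes by pattern. One item is not reported here and was left out of the lists. DESeq2 1.42.0 served as an alternative, and figures used matplotlib 3.10.9.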

Additional observations from a re-analysis of the deposited data

How the results depend on the processing

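The processing was varied in 13 ways: the scaling (DESeq2 factors, or plain library size), the gene filter (weaker or stricter), the test (DESeq2), the libraries in the fit, a replicate block, and the omission of each library. Against day 0, all 104 alternative values of the 8 genes kept their direction and their call with DMSO, and all 104 with 4-PBA. Between 4-PBA and DMSO, 97 of 104 did, and the exceptions were in genes other than Plat. The log2 difference of Anxa2 was 0.00067 with library size only. Without DMSO replicate 1 it was 0.025 for Anxa2, 0.036 for Plau, 0.024 for Plaur and 0.0021 for Serpinf1, and without 4-PBA replicate 2 it was 0.0067 for Plau. With 1 library left out, the lowest values were -0.042 for Anxa2, -0.056 for Plau and -0.20 for Plaur, and Serpinb2 ranged from -1.14 to -0.33 and Serpine2 from -0.31 to -0.0070. The cause was not tested. The number of the 8 genes called between 4-PBA and DMSO lay between 1 and 2 when 1 library was left out, and the number over all genes, 855, between 295 (without 4-PBA replicate 2) and 1194. Without 4-PBA replicate 1 it was 341. When a group is left with 1 library, that library is assumed to vary like the other groups. With the replicate block, 768 genes were called between 4-PBA and DMSO, 1 of them among the 8, and no call on the 8 genes changed. Same-numbered libraries did not deviate together (correlations -0.028, -0.0031 and -0.012 across genes). Each group gave a single difference between replicates, so these values cannot show whether such libraries shared a culture or a preparation. The length of all exons was added for the ratios after seeing the data. Depth limits Serpinb2 at day 4, with 12 to 27 counts per library.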
